A study of Mus musculus with 10 samples.

Results

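The genes described here are 32 interferon-stimulated antiviral genes, taken by symbol from a table of 55487 mouse genes counted in 10 liver RNA-seq libraries. All 32 were found once each in the table, and all passed the filter on low counts. The livers came from C57B/6J mice aged 22 months that were kept on normal chow. Flox mice (5 libraries) carried floxed Arg2 alleles. LKO mice (5 libraries) were littermates housed with them in which Arg2, the mitochondrial arginase, had been deleted from hepatocytes. The transgene that drove the deletion is not given in the sources used here. Poly(A)-selected RNA was sequenced from whole liver tissue, so a change in the number of cells of a type and a change in RNA per cell cannot be told apart. The members were compared between LKO and Flox, and set against the summed level of the serum amyloid genes Saa1 and Saa2 in each library.

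Type I interferons bind the receptor chains IFNAR1 and IFNAR2 and activate the kinases JAK1 and TYK2. STAT2 and IRF9 then act in the factor ISGF3, which binds the interferon-stimulated response element (ISRE) in the promoters of antiviral genes. Interferon gamma acts through another receptor and a shorter promoter element called GAS. In liver, hepatocytes, Kupffer cells, endothelial cells and infiltrating leukocytes can all respond, so the transcripts measured here have no single cell of origin.

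The ISRE is visible in the promoters of several members and is shown because it is the element through which ISGF3 acts. RefSeq promoters of build GRCm38.p6 (250 bases before to 50 after an annotated start) were at hand for 22 of the 32 members. The ISRE core was searched on both strands as GAAA, any 2 bases and GAAA, overlapping matches included. It occurred in the promoters of 12 of these 22 genes (54.5%) and of 1079 of all 27025 genes (3.99%). The GAS core TTCNNNGAA, which reads the same on both strands, occurred in 3 of the 22 (13.6%) and in 2582 of 27025 genes (9.55%). Below, the matches to the ISRE core are in capitals, read 5′ to 3′ on the gene's own strand. The Ifit lines show the second of the pair of matches in Ifit3 and Ifit3b, and both matches in Ifit1.
Isg15, chr4:156200860-156200911, minus strand: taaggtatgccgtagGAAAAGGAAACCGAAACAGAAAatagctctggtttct
Bst2, chr8:71537572-71537617, minus strand: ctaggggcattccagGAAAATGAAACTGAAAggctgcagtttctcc
Stat2, chr10:128270261-128270300, plus strand: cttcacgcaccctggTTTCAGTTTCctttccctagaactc
Oas1a, chr5:120907526-120907560, minus strand: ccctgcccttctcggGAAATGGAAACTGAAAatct
Oas1g, chr5:120887614-120887646, minus strand: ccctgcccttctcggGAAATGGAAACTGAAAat
Ifit3, chr19:34583392-34583431, plus strand: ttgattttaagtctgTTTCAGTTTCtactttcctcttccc
Ifit3b, chr19:34607788-34607827, plus strand: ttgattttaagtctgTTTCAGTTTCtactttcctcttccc
Ifit1, chr19:34640770-34640828, plus strand: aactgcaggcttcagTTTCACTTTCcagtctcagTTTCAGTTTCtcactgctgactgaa
In Isg15, 3 overlapping matches lie 78 to 57 bases before the start. The Ifit3 and Ifit3b stretches are the same letter for letter, and so are the first 33 bases of the Oas1a and Oas1g stretches. A match is a description of the letters and does not show that a factor bound there.

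The libraries held 43331354 to 54951415 gene counts. Levels are given as CPM, counts scaled to library size with edgeR's TMM factors, and group values as mean ± SD over the 5 libraries of a group (n = 5). Arg2 itself had 9 counts over the 5 Flox libraries and 10 over the 5 LKO libraries, so its counts do not check the deletion. LKO libraries are numbered here by the count table's columns (1 to 5), which could not be tied to the sample titles (6 to 10). Alb, the plasma protein that marks hepatocytes, was abundant throughout, at 70359 ± 23821 CPM in Flox against 108156 ± 8695 CPM in LKO, with its lowest value in Flox 3. Saa1 plus Saa2 stood at 100.3, 16934, 33623, 3772 and 77.0 CPM in Flox 1 to 5 and at 38.5, 797, 401, 198 and 76.1 CPM in LKO 1 to 5. These acute phase transcripts were thus high in Flox 2, 3 and 4, and Flox 1 and 5 lay inside the LKO range. The mean of log2(Saa1 + Saa2 CPM) was 10.78 in Flox and 7.49 in LKO, a difference of -3.29 that did not pass an exact two-sided permutation test (p = 0.135; the smallest p of this design is 0.00794).

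As a group the antiviral genes had lower values in LKO, but no single one passed the test. Log2 fold changes of LKO against Flox were below 0 for 31 of 32 members, with a median of -0.51 and a range from -2.22 (Zbp1) to 0.08 (Ifih1). A log2 fold change of -0.5 or lower was seen for 17 members (53.1%, against 7.29% of all genes). Over all 15894 genes tested the median was -0.01, and 51.6% were below 0. Members were chosen with earlier results of these data known, so this count is a description. By edgeR's quasi-likelihood test 0 of 32 members passed an adjusted p of 0.05 (0.0% of all genes passed on the lower side), and the smallest adjusted p of a member was 0.652. DESeq2 called 0 of the 23 members to which it gave an adjusted p (9 had none), and limma-voom 0 of 32. At an unadjusted p under 0.05, edgeR had 5 members lower (15.6%, against 4.33% of all genes). DESeq2 had 10 (793 of all 15894 genes) and limma-voom 3 (466 of 15894).

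Libraries of 1 group differed widely in these genes. Flox 3 had the highest value of all 10 libraries for 20 members (14.9% of all genes tested had their highest value there), Flox 4 for 4, LKO 2 for 4, Flox 5 for 3 and Flox 2 for 1. The lowest value lay in LKO 1 for 19 members (12.8% of all genes tested had theirs there), in LKO 5 for 11 and in Flox 2 for 2. The ratio of the highest to the lowest library had a median of 4.27 over the members, from 1.67 for Ifih1 to 41.3 for Zbp1. Summed over the 32 genes, the level was 744, 786, 1614, 1223 and 977 CPM in Flox 1 to 5 and 547, 1017, 898, 711 and 541 CPM in LKO 1 to 5. The groups overlapped, since LKO 2 and LKO 3 lay above Flox 1 and 2. Without Flox 3 the median log2 fold change of the members was -0.32, and without LKO 2 it was -0.82. Leaving out Flox 3 made the difference more than 1.5 times smaller for 18 members, and leaving out LKO 2 made it more than 1.5 times larger for 10.

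**Figure D1:**
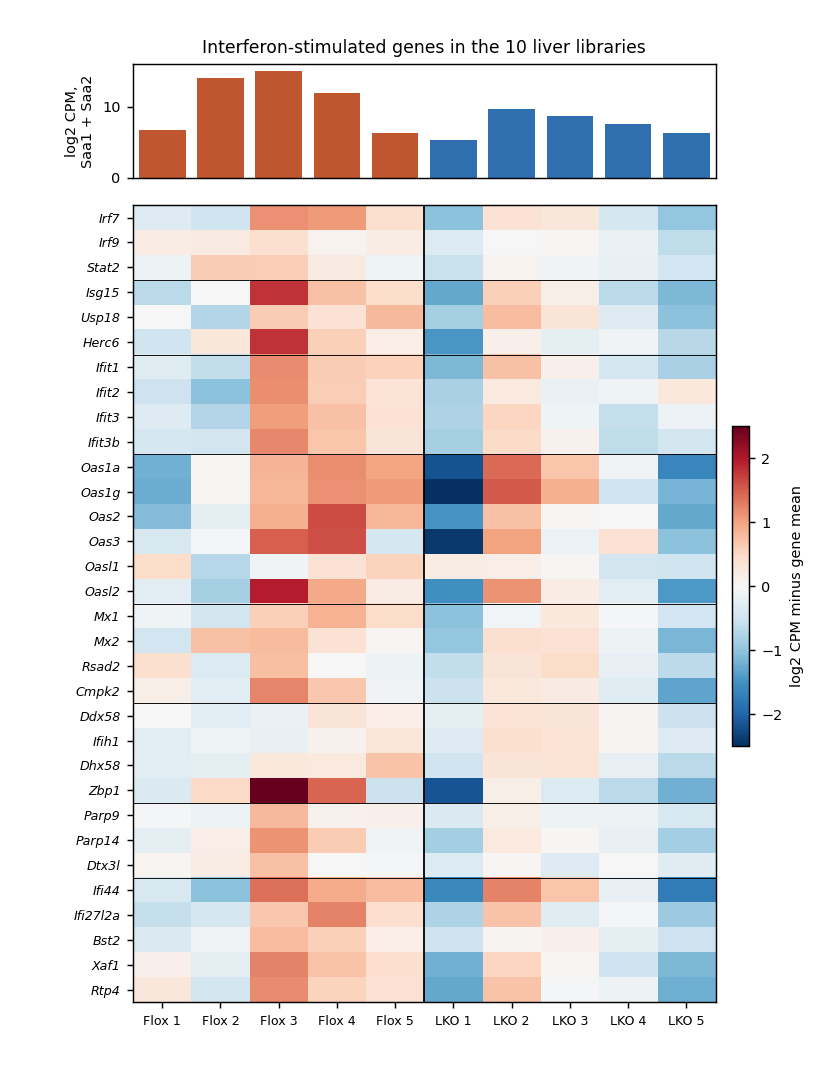
Each row is 1 member, grouped by role, and each column 1 library; colour gives log2 CPM minus the gene's mean over the 10 libraries (the scale ends at 2.5 on either side), and the bars give log2 CPM of Saa1 plus Saa2. Flox 3 is the highest library for 20 of 32 members, and LKO 1 the lowest for 19.

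The transcription factors of the pathway were lower in LKO by 0.42 to 0.75 on the log2 scale, none past the adjusted threshold. Irf9, the DNA-binding part of ISGF3, was at 46.9, 48.0, 54.7, 44.0 and 47.2 CPM in Flox 1 to 5 and at 32.5, 41.8, 42.98, 36.7 and 26.4 CPM in LKO 1 to 5. Every LKO library lay below every Flox library for Irf9, the only member of which this held (0.371% of all genes tested did so). Its log2 fold change was -0.42 ± 0.13 (SE; edgeR unadjusted p = 0.0071, adjusted p = 0.652). Stat2, the signal transducer of the complex, was at 46.6, 78.9, 78.5, 59.4 and 47.5 CPM in Flox and at 34.8, 54.0, 47.9, 44.9 and 36.6 CPM in LKO. Flox 2 and 3 stood apart at the top, and Flox 1 and 5 overlapped LKO 2 and 3 (log2 fold change -0.51 ± 0.18 SE; edgeR adjusted p = 0.652). Irf7, the factor that amplifies interferon production, was at 76.6, 67.3, 210.5, 198 and 126 CPM in Flox and at 47.0, 123, 115, 70.2 and 49.0 CPM in LKO. Irf7 was high in Flox 3 and 4, while Flox 2 was lower than 3 of the LKO libraries.

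Genes of the ISG15 system differed in how far they were apart. Isg15 encodes the ubiquitin-like modifier that is joined to proteins after interferon, and Herc6 is its main ligase in the mouse. Isg15 was at 11.9, 19.01, 66.9, 31.7 and 25.7 CPM in Flox 1 to 5 and at 7.85, 28.8, 21.1, 11.9 and 8.74 CPM in LKO 1 to 5. Flox 3 was more than any other library, and its removal took the Flox mean from 31.0 to 22.1 CPM. Herc6 was at 5.43, 9.34, 27.0, 11.7 and 8.65 CPM in Flox and at 2.79, 8.40, 6.53, 7.25 and 4.73 CPM in LKO, a log2 fold change of -1.06 ± 0.43 (SE; edgeR unadjusted p = 0.0343, adjusted p = 0.652). The 4 Flox libraries other than Flox 1 lay above all LKO libraries for Herc6. Without Flox 3 its Flox mean fell from 12.4 to 8.77 CPM and the log2 fold change was -0.57. Usp18, the protease that removes ISG15 and restrains the receptor, overlapped widely (14.997 ± 5.51 CPM in Flox against 11.6 ± 6.13 CPM in LKO).

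The IFIT genes, whose proteins bind foreign RNA, sit side by side on chromosome 19 and had log2 fold changes of -0.37 to -0.59. Ifit3 was at 14.5, 10.98, 37.6, 30.2 and 23.5 CPM in Flox 1 to 5 and at 10.6, 26.6, 17.0, 12.04 and 16.5 CPM in LKO 1 to 5. Ifit3b was at 3.66, 3.64, 11.5, 8.02 and 6.26 CPM in Flox and at 2.79, 6.99, 5.39, 3.21 and 3.65 CPM in LKO. Both were high in Flox 3 and 4, and LKO 2 lay above Flox 1, 2 and 5. Of the 50-base windows of their transcripts, 51.2% of Ifit3 and 45.0% of Ifit3b also occur in another gene, mainly in each other, so their reads could be split or lost. Ifit1 (23.1 ± 11.04 CPM in Flox against 15.4 ± 8.19 CPM in LKO) and Ifit2 (3.17 ± 1.77 against 2.44 ± 0.661 CPM) were likewise highest, among the Flox libraries, in Flox 3 and 4. Without Flox 3 the log2 fold changes were -0.06 for Ifit2, -0.26 for Ifit3, -0.29 for Ifit3b and -0.32 for Ifit1.

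Members of the OAS family, several of which make the short oligoadenylates that switch on RNase L, had log2 fold changes of -0.27 to -0.85. Oas2 was at 0.409, 0.728, 1.59, 2.67 and 1.53 CPM in Flox 1 to 5 and at 0.310, 1.44, 0.888, 0.868 and 0.355 CPM in LKO 1 to 5. Oas3 was at 0.895, 1.15, 3.34, 3.61 and 0.876 CPM in Flox and at 0.222, 2.39, 1.08, 1.55 and 0.580 CPM in LKO. Flox 3 and 4 were the highest libraries for both genes, and LKO 2 was the highest of the LKO libraries. Oas1a reached its highest value in LKO 2 (13.2 CPM) and its lowest in LKO 1 (1.09 CPM), and its close copy Oas1g had the same extremes (4.26 and 0.244 CPM). Here too 57.6% of the Oas1a windows and 45.7% of the Oas1g windows occur in another gene. Oasl1, which restrains translation of Irf7, departed from the family. It was at 38.8, 17.3, 26.6, 36.4 and 41.4 CPM in Flox and at 32.3, 31.5, 28.8, 20.4 and 19.996 CPM in LKO, with its lowest value in Flox 2. Oasl2 ranged from 3.68 to 25.6 CPM in Flox and from 2.26 to 14.2 CPM in LKO.

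The Mx GTPases, viperin (Rsad2) and Cmpk2 had log2 fold changes of -0.26 to -0.67. Mx1 and Mx2, listed in the count table as polymorphic pseudogenes, were low, Mx1 at 0.925 ± 0.321 CPM in Flox against 0.629 ± 0.196 CPM in LKO. Mx2 was at 3.58, 8.29, 8.55, 6.35 and 5.13 CPM in Flox 1 to 5 and at 2.55, 6.59, 6.36, 4.55 and 2.24 CPM in LKO 1 to 5. Flox 2 and 3 were highest for Mx2, as they were for Stat2. Rsad2, an enzyme that makes a chain-terminating nucleotide, was at 13.9, 8.31, 17.7, 10.6 and 9.68 CPM in Flox and at 6.87, 13.2, 14.5, 9.10 and 6.73 CPM in LKO, with wide overlap. Its neighbour Cmpk2, a mitochondrial nucleotide kinase 12751 bases away, was at 7.94, 5.93, 16.7, 11.4 and 6.68 CPM in Flox and at 4.92, 8.59, 8.29, 5.82 and 2.86 CPM in LKO. Only Flox 3 and 4 lay above all LKO libraries for Cmpk2.

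Among the nucleic acid sensors, Zbp1 and the RIG-I-like receptors stood at opposite ends of the members. Zbp1, a sensor of Z-form nucleic acid that can trigger necroptosis, was at 14.2, 25.4, 168, 49.9 and 12.6 CPM in Flox 1 to 5 and at 4.08, 20.1, 14.5, 11.4 and 7.95 CPM in LKO 1 to 5. Its log2 fold change was -2.22 ± 0.79 (SE; edgeR unadjusted p = 0.0197, adjusted p = 0.652). Without Flox 3 the Flox mean was 25.5 instead of 54.1 CPM and the log2 fold change -1.14. Ifih1, which encodes the RNA sensor MDA5, was at 38.7, 43.4, 41.1, 50.7 and 57.9 CPM in Flox and at 37.3, 62.4, 59.1, 49.2 and 37.8 CPM in LKO. It was the only member with a positive log2 fold change (0.08 ± 0.17 SE; adjusted p = 0.895 by edgeR), and its sign turned without LKO 2 (-0.016). Ddx58, which encodes RIG-I, was at 34.9 ± 5.92 CPM in Flox against 34.8 ± 8.55 CPM in LKO, and Dhx58 (LGP2) at 18.5 ± 5.32 against 15.3 ± 4.89 CPM. A p that misses the threshold does not show that these levels are equal.

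Parp9, Dtx3l and Parp14 lie within 1 stretch of chromosome 16. PARP9 and DTX3L act as a pair that modifies proteins with ADP-ribose and ubiquitin. Dtx3l was at 53.4, 58.7, 86.1, 51.0 and 50.1 CPM in Flox 1 to 5 and at 40.7, 52.4, 41.2, 51.4 and 42.0 CPM in LKO 1 to 5 (log2 fold change -0.39 ± 0.15 SE; edgeR unadjusted p = 0.0249, adjusted p = 0.652). Parp9 was at 54.4, 50.4, 97.8, 59.6 and 60.6 CPM in Flox and at 43.6, 61.9, 51.1, 50.8 and 41.9 CPM in LKO. Flox 3 was alone at the top for both genes, and without it the log2 fold changes were -0.23 for Dtx3l and -0.17 for Parp9. Parp9 and Dtx3l overlap by 682 bases on opposite strands. Strandedness of the counts is not given in the sources used here, so reads from the shared stretch cannot be assigned. Parp14, an ADP-ribosyl transferase, was at 33.4, 43.4, 85.2, 60.1 and 36.7 CPM in Flox and at 21.7, 46.1, 39.8, 34.0 and 21.5 CPM in LKO. Flox 3 and 4 were again highest, and LKO 2 lay above Flox 1, 2 and 5.

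Bst2 was the most abundant member per length, and Mx1 and Oas3 the least. Per kilobase of exon, Bst2 (tetherin, which holds budding virions at the cell surface) averaged 264 CPM in Flox and 191 CPM in LKO, followed by Isg15 (41.1 and 20.7) and Irf7 (35.9 and 21.4). Mx1 averaged 0.245 CPM per kilobase in Flox, and Oas3 0.279. Bst2 was at 154, 186, 335, 296 and 219 CPM in Flox 1 to 5 and at 137, 207, 216, 165 and 137 CPM in LKO 1 to 5. Flox 3, 4 and 5 lay above all LKO libraries (log2 fold change -0.46 ± 0.22 SE; edgeR unadjusted p = 0.057, adjusted p = 0.652). Xaf1, a binding partner of the apoptosis inhibitor XIAP, was at 8.72, 6.71, 18.8, 13.04 and 10.6 CPM in Flox and at 3.48, 11.7, 8.22, 5.56 and 3.68 CPM in LKO. LKO 2 and 3 overlapped the Flox libraries, while LKO 1, 4 and 5 lay below them all. Ifi44, Ifi27l2a and Rtp4 had log2 fold changes of -0.44 to -0.67 with SE of 0.40 to 0.65.

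Levels of 9 members rose with the serum amyloid level of the libraries. In an edgeR fit over all 10 libraries, the slope on log2(Saa1 + Saa2 CPM) was above 0 for 31 of 32 members (51.1% of all genes), with a median of 0.12 log2 units per doubling of serum amyloid (0.0013 over all 15892 genes). It passed an adjusted p of 0.05, on the positive side, for 9 members (28.1%), against 6.51% of all genes, and for 0 members on the negative side, against 6.8%. At an unadjusted p under 0.05 it was 16 members on the positive side (14.1% of all genes) and 0 on the negative. The 9 were Stat2, Zbp1, Parp14, Herc6, Mx2, Dtx3l, Bst2, Oas3 and Isg15. Zbp1 had the largest slope (0.41 ± 0.06 SE; edgeR adjusted p = 0.00232) and Stat2 the smallest p (0.11 ± 0.01 SE; edgeR adjusted p = 0.000255). Herc6 (0.21), Parp14 (0.15) and Mx2 (0.15) lay between them, at edgeR adjusted p of 0.00637, 0.00367 and 0.00854. Oasl1 was the exception, with a slope of -0.04 (edgeR adjusted p = 0.517), and Ddx58 (0.0041) and Ifih1 (0.0032) were near 0.

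**Figure D2:**
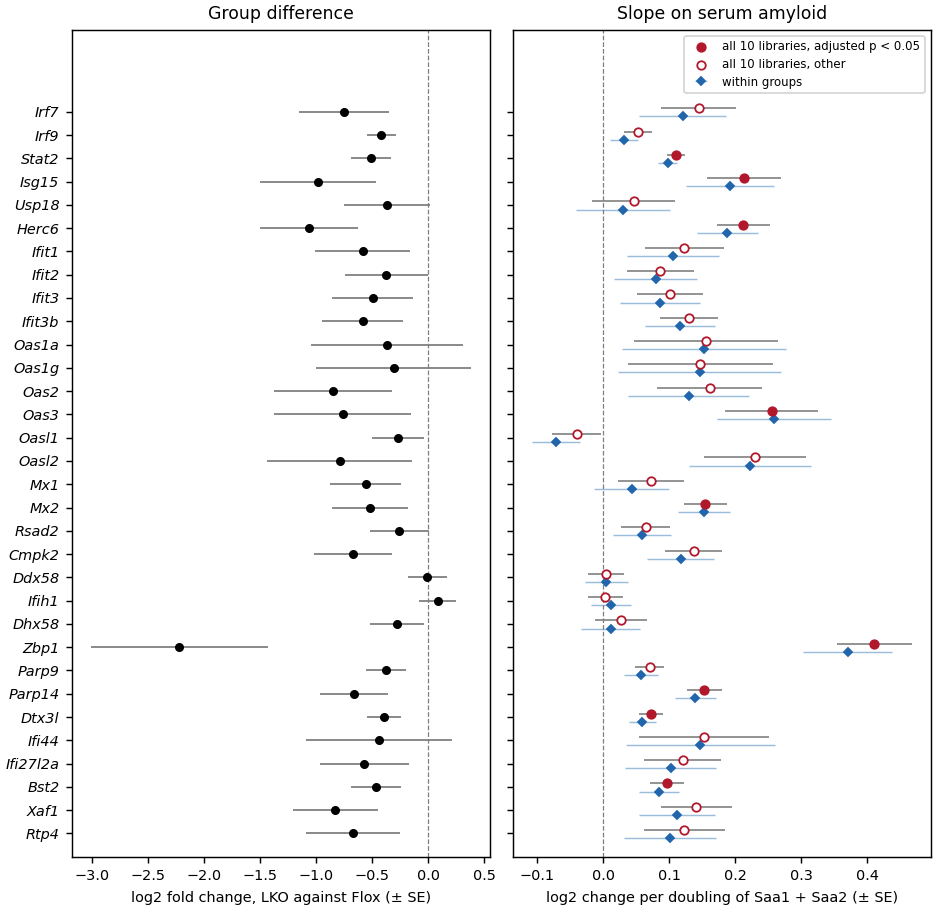
Left, log2 fold change of LKO against Flox with its SE for each member; right, log2 change per doubling of Saa1 plus Saa2 with its SE over all 10 libraries (circles, filled where the adjusted p is under 0.05) and with genotype in the fit (diamonds). Of the 32 members, 31 lie below 0 on the left and 31 above 0 on the right, and 9 circles are filled.

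With genotype in the same fit, the slopes within groups had a median of 0.10 over the members (51.7% of all genes were above 0), and 5 members passed: Stat2, Zbp1, Parp14, Mx2 and Herc6 (15.6%, against 2.77% of all genes; edgeR adjusted p from 0.00285 to 0.0401). On the negative side it was 0 members, against 3.98% of all genes. All 5 were among the 9 of the pooled fit. The group difference at equal serum amyloid had a median of -0.22 over the members, 29 of 32 lay below 0 (50.9% of all genes), and 0 of 32 passed (0.0% of all genes were lower at an adjusted p under 0.05). For this difference 1 member was lower at an unadjusted p under 0.05 by edgeR (1.44% of all genes). It was 1 by DESeq2 (237 of all 15892 genes) and 2 by limma-voom (548 of 15892). At an adjusted p under 0.05, DESeq2 and limma-voom called 0 members. Genotype and serum amyloid overlap in part in these libraries, so the terms are not cleanly separable. The member calls rested in part on single libraries. Without Flox 3 the pooled slope kept 3 of the 9 (Stat2, Zbp1 and Mx2), and 359 of all 16174 genes passed on the positive side. Without Flox 2 it called 17 members, all 9 among them, and 859 of all 16127 genes on the positive side. Without LKO 1 or LKO 5 it kept 6, Bst2, Isg15 and Oas3 being lost (753 of 16202 and 928 of 16123 genes passed on that side). Isg15 was also lost without Flox 1, Flox 4, LKO 3 or LKO 4 (edgeR adjusted p from 0.052 to 0.064). Oas3 was also lost without Flox 1, Flox 4 or Flox 5 (edgeR adjusted p from 0.054 to 0.063). Without Flox 5 the median difference at equal serum amyloid turned to 0.12, with 13 members below 0 and 19 above. The within-group slope passed for Stat2 alone without Flox 1 (130 of all 16131 genes, positive side) or Flox 3 (171 of 16174). It passed for 3 members without Flox 5 (96 of 16094), LKO 1 (318 of 16202) or LKO 2 (328 of 16154). For 11 members it passed without Flox 2 (485 of 16127). Without Flox 2 and 3 together it passed for Bst2, Irf7, Oas3, Parp14 and Zbp1 (303 of 16549), and the call of Stat2 was lost.

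Permutation of the libraries gave the same leading genes. Over 100000 permutations, adjusted over 15892 genes, Pearson's r of log2 CPM with log2 serum amyloid passed for 6 members (18.8%, against 3.86% of all genes on the positive side): Stat2, Zbp1, Herc6, Parp14, Mx2 and Dtx3l. Stat2 had r = 0.96 (permutation p = 5e-05, adjusted p = 0.00722) and Spearman's rho = 0.94 (permutation p = 0.00028, adjusted p = 0.0316). Zbp1 had r = 0.89 (permutation p = 0.00025, adjusted p = 0.0138) and rho = 0.95 (permutation p = 0.00017, adjusted p = 0.0272). For Irf7 r was 0.60 (permutation p = 0.0701, adjusted p = 0.219) and rho 0.61 (permutation p = 0.0656, adjusted p = 0.257). Flox 2 and 3 were the libraries farthest from the median serum amyloid level. Without them r was 0.87 for Stat2, 0.92 for Zbp1, 0.82 for Irf7 and 0.39 for Dtx3l, so the relation of Dtx3l did not hold without them. The edgeR slope of Dtx3l stayed past the threshold without Flox 2 alone (0.08, adjusted p = 0.0228) and did not without Flox 3 alone (0.04, adjusted p = 0.245). Over the 32 members the median r was 0.59 with all libraries and 0.73 without Flox 2 and 3, where all 32 were above 0.

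Among the 5 LKO libraries the members' mean level ran in the order of serum amyloid, and among the Flox libraries it did not. Both the mean log2 CPM of the members and serum amyloid decreased from LKO 2 through LKO 3, 4 and 5 to LKO 1. LKO 2 was the highest LKO library for 25 members and LKO 1 the lowest for 20. Flox 2, at rank 2 of all libraries in serum amyloid, was at rank 6 in the members' mean level, and Flox 5, at rank 8 in serum amyloid, was at rank 4. Flox 2 lay below Flox 3 for 30 of 32 members and below LKO 2 for 26. How often these orders of libraries hold over all genes was not examined, so the member counts in this paragraph are a description only.

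**Figure D3:**
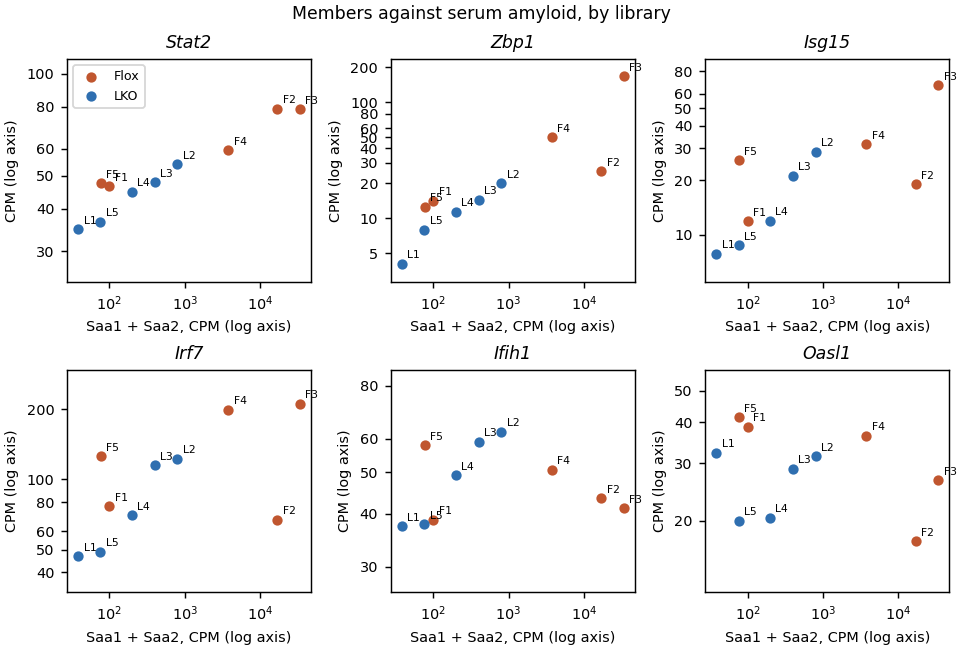
CPM of 6 members against Saa1 plus Saa2 CPM in the 10 libraries (F Flox, L LKO, with library number; log axes). Flox 2 lies near Flox 3 for Stat2 and far below it for Zbp1, Isg15 and Irf7, and the slopes of Ifih1 and Oasl1 are 0.0032 and -0.04.

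The interferon genes themselves had few or no counts. Of 21 ligand genes, 15 had 0 counts in every library, which allows up to 3 counts each. Ifng, the gamma interferon, had 29 counts in all, of which 10 were in Flox 3 and 12 in Flox 4. Ifnb1 had 4 counts, all in Flox 3. None of the 21 was tested.

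For the receptor chains of type I interferon, Ifnar1 was at 30.2 ± 3.97 CPM in Flox against 28.7 ± 2.24 CPM in LKO, and Ifnar2 at 48.4 ± 5.47 against 44.5 ± 3.68 CPM. Neither passed the group test or the slope test by edgeR.

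Of 21 genes of nucleic acid sensing upstream of interferon, 18 were lower in LKO (51.6% of all genes were) and 0 passed. The slope on serum amyloid passed on the positive side for 7 of the 21, against 6.51% of all genes. These were Myd88, Irf8, Traf3, Tbk1, Sting1, Unc93b1 and Ikbke. Myd88, the adaptor of Toll-like receptors, was at 18.3 ± 7.43 CPM in Flox against 11.1 ± 0.718 CPM in LKO, with a slope of 0.13 ± 0.02 (SE; edgeR adjusted p = 0.000911). Sting1, the adaptor of cytosolic DNA sensing, was at 2.39 ± 1.51 against 1.07 ± 0.268 CPM. Among 15 tested negative regulators, 10 were lower in LKO and 0 passed, and 6 rose with serum amyloid, beside the same shares of all genes. Socs1, an inhibitor of JAK kinases, was at 2.24 ± 3.42 against 0.349 ± 0.101 CPM, with a slope of 0.46 ± 0.06 (SE; edgeR adjusted p = 0.00124). Adar, which edits double-stranded RNA, was at 20.1 ± 2.72 against 14.5 ± 3.73 CPM.

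A further 58 interferon-stimulated genes that are not members had a median log2 fold change of -0.40. Of these, 53 were lower in LKO (51.6% of all genes were) and 0 passed the group test. On the positive side of the serum amyloid slope 19 passed, against 6.51% of all genes. Znfx1, a helicase that senses RNA, was at 60.4 ± 6.05 CPM in Flox against 49.1 ± 6.1 CPM in LKO, and Parp11 at 6.97 ± 3.17 against 4.26 ± 0.924 CPM. The 13 GTPases that interferon gamma induces were all lower in LKO with a median of -1.98, 0 passing. All 13 rose with serum amyloid (6.51% of all genes did), while 1 did so within groups (2.77% of all genes). Their summed level was 2161 CPM in Flox 3, 517 CPM in Flox 4 and 129 to 286 CPM in the other 8 libraries. Gbp5 and Igtp, which act on pathogen-containing vacuoles, reached 16.1 and 667 CPM in Flox 3.

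Markers of several leukocytes were mostly lower in LKO, as the members were, and their part in the result was not tested. Of 17 tested T and NK cell markers (19 listed), 16 were lower in LKO and 0 passed the group test. On the positive side of the slope 8 of the 17 passed. Over all genes, 51.6% were lower and 6.51% passed on that side of the slope. The summed level of the T and NK list was 6.13 to 18.4 CPM in Flox and 3.26 to 8.13 CPM in LKO, Flox 3 being highest and LKO 1 lowest, as for the members' mean log2 CPM. Other libraries differed in order. The T and NK sum was 13.9 CPM in Flox 2 and 8.29 CPM in Flox 5, where the members summed to 786 and 977 CPM. Lck, a T cell kinase, was at 1.20 ± 0.618 CPM in Flox against 0.410 ± 0.101 CPM in LKO, and Il2rb at 2.02 ± 1.07 against 0.879 ± 0.187 CPM. Of 12 monocyte and recruited macrophage markers, 11 were lower and 7 rose with serum amyloid, and their sum was 61.6 to 161 CPM in Flox and 36.4 to 138 CPM in LKO. Ccr2, the monocyte chemokine receptor, averaged 3.19 ± 2.46 CPM in Flox against 1.11 ± 0.38 CPM in LKO. For Itgax, an integrin of myeloid cells, the means were 1.49 ± 0.804 CPM in Flox and 0.625 ± 0.286 CPM in LKO.

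Kupffer cell markers were lower in LKO for 12 of 12 genes (51.6% of all genes were), 0 past either test. At equal serum amyloid, 10 of the 12 were higher in LKO and 2 lower (50.9% of all genes were lower). The median of that difference was 0.24 and 0 passed. Their slopes on serum amyloid were above 0 for 12 of 12, with 6 at an unadjusted p under 0.05 (14.1% of all genes). Sums of the Kupffer markers were 142 to 773 CPM in Flox and 93.4 to 603 CPM in LKO. Their highest libraries were Flox 4 and LKO 2, and their lowest LKO 1 and Flox 5. C1qc and C1qb, complement genes of macrophages, were at 43.8 ± 25.0 against 29.5 ± 13.4 CPM and 42.1 ± 25.2 against 28.0 ± 12.6 CPM. Clec4f, which defines Kupffer cells, was at 46.6 ± 31.6 CPM in Flox against 45.5 ± 24.5 CPM in LKO. Plasmacytoid dendritic cells are a known source of type I interferon and express Bst2. Of their 10 listed markers, 4 were tested, 1 (Ptprcap) had 0 counts, and the sum of 21.3 to 40.3 CPM in Flox and 24.1 to 40.8 CPM in LKO came mostly from Tcf4, which other cells express. Their defining marker Siglech had 64 counts over the 10 libraries. Its highest level was 0.324 CPM, in Flox 2.

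**Figure D4:**
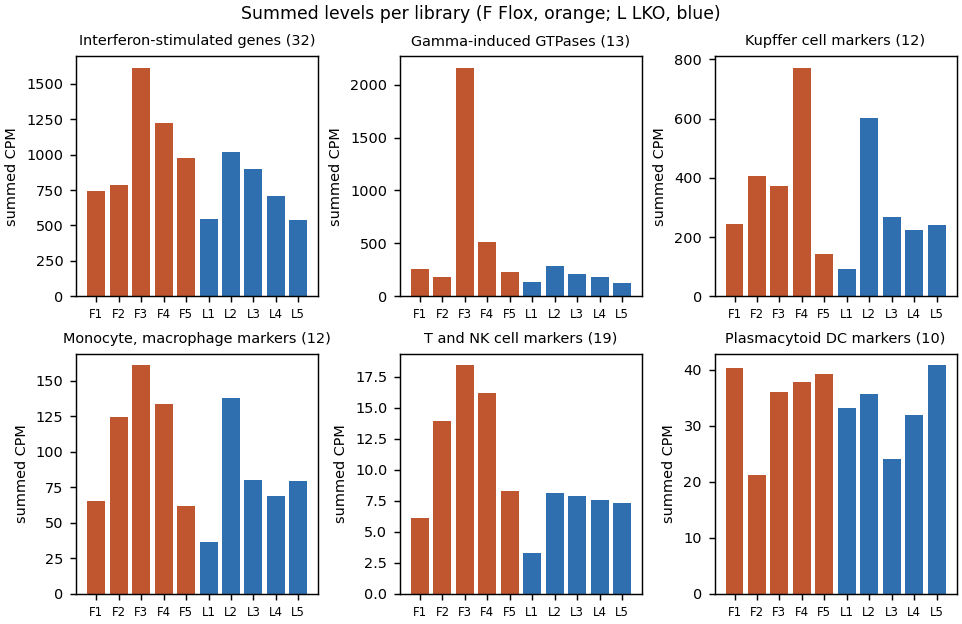
Summed CPM of the members and of 5 comparison lists in each library (F Flox, L LKO; bars start at 0). Flox 3 is the highest library for the members, the gamma-induced GTPases, monocyte and macrophage markers and T and NK markers, whereas Kupffer markers peak in Flox 4 and LKO 2.

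Of the other lists, neutrophil markers were lower in LKO for 5 of 6 tested genes (sums of 1.46 to 26.2 CPM in Flox and 2.504 to 25.4 CPM in LKO) and conventional dendritic cell markers for 5 of 7 (4.44 to 9.34 and 3.50 to 6.02 CPM). Sinusoidal endothelial markers were lower for 7 of 11 (143 to 221 and 131 to 199.6 CPM), and B and plasma cell markers for 5 of 8 (60.3 to 327 and 127 to 294 CPM). Stellate cell and fibroblast markers were lower for 4 of 8, and 4 of the 8 fell as serum amyloid rose (6.8% of all genes did). Cholangiocyte markers were lower for 2 of 5 tested. Of all genes, 51.6% were lower. The slope passed on the positive side for 2 conventional dendritic cell, 1 neutrophil, 1 cholangiocyte and 2 hepatocyte markers (6.51% of all genes). On the negative side it also passed for 4 hepatocyte markers. Erythroid genes had higher values in LKO for 11 of 11, with a median log2 fold change of 1.02. At an unadjusted p under 0.05, 7 of the 11 were higher, as were 504 of all 15894 genes. The sums of the erythroid genes did not overlap (236 to 415 CPM in Flox and 464 to 903 CPM in LKO). Hepatocyte markers were lower for 5 of 12 and higher for 7, and their sums did not overlap either (82505 to 146187 CPM in Flox and 151529 to 183487 CPM in LKO). Alb, with a higher mean in LKO as given above, made up much of these sums, so they do not speak for all 12 markers. How often the sums of other sets of genes separate the groups was not examined. The part of these cells in the members' values was not tested. None of these genes passed the group test by edgeR.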

How the data were processed

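The authors deposited raw read counts for each Ensembl gene, with nothing scaled. Per the submitters' processing notes, STAR 2.5.1a, featureCounts 1.4.6-p5 of Subread, bcl2fastq and build GRCm38 were used. Neither strandedness nor the handling of multi-mapping reads is given in the sources used here. After 287 repeated lines were dropped, genes were kept by edgeR's filterByExpr (15894), scaled by TMM and tested with edgeR 4.0.16 (robust quasi-likelihood F test, R 4.3.3). Benjamini-Hochberg adjustment ran over all genes tested, and the threshold was 0.05. SE were derived from F. Slopes used log2(Saa1 + Saa2 CPM), with Saa1 and Saa2 not tested (15892 genes). DESeq2 1.42.0, limma 3.58.1 (voom with quality weights), other scalings and filters, and left-out libraries were alternatives. The fits were tested on simulated counts.

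Members and lists were chosen with earlier results of these data known. Named with values in every library were Irf7, Irf9, Stat2, the most abundant member and the one with the smallest p in each of 8 role groups, and members past an adjusted p of 0.05 in any fit. In other lists, up to 2 genes with the smallest p were named; a result on 1 further gene is not reported here. For the cell type lists this was shortened to the T and NK cell, monocyte and Kupffer cell lists, which were mostly lower in LKO like the members. Clec4f, Siglech, Tcf4, Alb, Ifnar1 and Ifnar2, Ifng and Ifnb1, and the members outside the rule (given by group values), were chosen after their values were seen. Positions and exon lengths are those of GENCODE M21 (GRCm38). No label says that each library is a separate mouse, so p-values measure only the spread between libraries. Limits from counts of 0 cover counting error only.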

Additional observations from a re-analysis of the deposited data

Results flagged for a closer look

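Parp9 in Flox 3 stood apart from the other 4 Flox libraries, at 97.8 CPM against 60.6 CPM in the next. On the log2 scale that gap was 0.721 of the range of the 5 libraries. It was the only such case among the 64 groups of 5 libraries examined (32 members in 2 groups). Chance gives about 1 case in every 20 groups, so 1 case in 64 groups is not more than chance gives.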

How the results depend on the processing

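Members lower in LKO numbered 30 to 32 under every alternative that tested all 32, and their median log2 fold change was -0.82 (without LKO 2) to -0.32 (without Flox 3). With single libraries left out, the number at an unadjusted p under 0.05 was 2 to 16. It was 2 without Flox 3 (303 of all 16176 genes were lower) and 16 without LKO 2 (709 of 16156). For LKO against Flox, edgeR called 0 of all genes in each fit and DESeq2 11 of the 8184 with an adjusted p. At equal serum amyloid the calls were 4 with no filter on low counts, 8 by DESeq2 and 1 without Flox 2 and 3, and the median over the members was -0.44 to 0.12 with single libraries left out, turning positive without Flox 5. With single libraries left out, the pooled slope called 789 to 2163 genes (both signs) and 3 to 17 members (positive only). Without Flox 2 and 3 it called 498 genes (364 of 16549 on the positive side) and 5 members. By DESeq2 it called 15 members (1398 of 15892 genes on the positive side). Its median over the members was 0.087 to 0.18 with single libraries left out and 0.20 without Flox 2 and 3. Per unit of the other acute phase genes' mean log2 CPM it was 0.33. Within groups the slope called 240 to 1184 genes (both signs) and 1 to 11 members (positive only) with single libraries left out. It called 2037 genes by DESeq2, 1719 by limma-voom and 425 without Flox 2 and 3. In that last setting the median was 0.19 and 2 of the 5 calls were kept (Parp14 and Zbp1). Those of Stat2, Mx2 and Herc6 were lost. The medians with single libraries left out were 0.07 to 0.16. The difference in serum amyloid was -4.42 to -2.22. Of 718 values of named members, 669 kept direction and side of the threshold, 26 lost a call, 17 gained one and 6 turned. These include the group differences, where 0 members passed in any setting, so that 669 is no measure of how firm the slope calls are. The slope call was lost under 10 alternatives for Isg15 and under 7 for Oas3. The slope of Ifih1 (-0.012 to 0.027 with single libraries left out) turned without Flox 1 (-0.0046), LKO 1 (-0.012) or LKO 5 (-0.0069) and with the other acute phase genes (-0.021), that of Oasl1 without Flox 2 and 3 (0.017), and the group difference of Ifih1 without LKO 2 (-0.016). The causes were not tested.

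Titles give the groups no shared numbers. With the column number as a replicate block, edgeR called 0 genes. At an unadjusted p under 0.05, 11 members were lower, as were 758 of all 15894 genes. Whether the numbers pair the libraries is not known. Deviations of same-numbered columns correlated at 0.074 to 0.354, and 2 of 5 pairs matched best with their own number, which does not decide it.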

Other observations

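Flox 2 and Flox 3 had the highest serum amyloid of the 10 libraries but different antiviral profiles. Stat2 (78.9 and 78.5 CPM) and Mx2 (8.29 and 8.55 CPM) were at one level in both. Irf7 was at 67.3 CPM in Flox 2 and 210.5 CPM in Flox 3, Ifit1 at 11.1 and 38.6 CPM, Oasl2 at 3.68 and 25.6 CPM, and Usp18 at 7.26 and 18.7 CPM. Ifng had 0 counts in Flox 2 and 10 in Flox 3. With 1 library on each side, these values carry no test.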
